A study of Mus musculus with 4 samples.

Results

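The genes described here encode the matrix metalloproteinases (MMPs), the ADAMTS proteinases with their ADAMTS-like relatives, and the tissue inhibitors of metalloproteinases (TIMPs). They were taken by symbol (every Mmp, Timp, Adamts and Adamtsl gene), which gave 50 of the 32285 genes in the count tables, namely 22 Mmp, 4 Timp, 19 Adamts and 5 Adamtsl genes. No measured value entered this rule, although earlier results of these data were known when the genes were chosen. Of the 50, 36 had at least 200 UMIs (unique molecular identifiers, each counting 1 captured RNA molecule) over all slices, whereas Mmp1b, Mmp7 and Mmp20 had none and Mmp21 had 1. For these genes 3 UMIs in a slice would have been a level of 0.00127 to 0.00265 UMIs per 10000, so lower levels could have been missed at this depth.

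MMPs are zinc enzymes that cleave collagens, other matrix proteins and cell surface proteins. They are made as inactive precursors, are switched on by removal of their propeptide, and are blocked in the tissue by TIMPs. ADAMTS enzymes are secreted relatives that trim procollagens or cleave the chondroitin sulphate proteoglycans that fill the brain's extracellular space, while ADAMTS-like proteins share their binding modules but lack the protease. After brain injury this system is known for opening the blood-brain barrier early and for remodelling the scar later.

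Slices of mouse brain were profiled on 4 Visium capture areas with 2 slices each, each slice from 1 mouse. Wild-type (WT) mice were studied at rest (1 slice), and at 2 (1 slice), 7 (2 slices) and 21 (2 slices) days after photothrombotic injury of the cortex (dpi), in which a light-activated dye clots cortical vessels. A further 2 slices at 21 dpi came from Cthrc1(creER); R26(DTA) mice, in which tamoxifen-activated Cre under control of Cthrc1, a myofibroblast gene, switches on diphtheria toxin in the same cells (deleter mice), and the study's methods describe their deletion as undetectable. The age of these mice is not in the labels. Which slice of the first area is at rest and which at 2 dpi is not labelled either and follows the tissue outlines, so a direction between these 2 slices rests on that assignment. A spot covers several cells, so fewer cells of a type and less RNA per cell cannot be told apart.

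Spots with at least 5 Col1a1 UMIs per 10000 are called fibrotic here and spots without a Col1a1 UMI are called free. The name fibrotic covers any Col1a1-rich tissue, not the scar alone, and all 3 such spots of the slice at rest lay at the tissue edge. At 7 and 21 dpi 18.4% to 68.8% of fibrotic spots lay there, against 10.8% to 23.2% of all tissue spots. The study described only some of its Col1a1-enriched spatial clusters as injury-associated. The part of the meninges, the membranes around the brain, was not tested. Col1a1 encodes a chain of the main scar collagen. At rest the slice held 3 fibrotic spots and at 2 dpi 26. Of these 26, 19 had fewer than 3 Col1a1 UMIs, as had 19 of the 112 in slice 1 at 7 dpi. In a shallow spot such a count can reach the threshold. The injured slices at 7 and 21 dpi held 112 to 392 fibrotic and 228 to 651 free spots each, with 11332780 to 23677298 UMIs per slice. The summed level of 5 fibroblast markers (Col1a2, Col3a1, Dcn, Lum and Pdgfra) was 37.8 to 105 UMIs per 10000 in fibrotic and 1.03 to 1.22 in free spots, and that of 5 neuronal markers 7.67 to 12.8 against 29.8 to 62.9. Macrophage and microglial markers were also higher in fibrotic spots in every injured slice, 23.7 to 34.6 against 2.58 to 12.8. In the wild-type slices at 7 and 21 dpi mural cell markers had 3.21 to 4.93 against 0.81 to 1.31, and endothelial markers 1.66 to 2.56 against 1.02 to 1.35. Oligodendrocyte markers were lower in fibrotic spots of these slices apart from slice 2 at 21 dpi, where they had 108.9 against 61.5. The classes thus differ in more than fibroblasts, and the part of each cell type in the results below was not tested. Slice 1 at 7 dpi stood apart. The median fibrotic spot there had 4923.5 UMIs against 16149 in its free spots, 68.8% of its fibrotic spots lay at the tissue edge, and results that rest on it are given without it too.

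Most of the genes tested were higher in fibrotic than in free spots of the same slice. At 7 dpi 25 of the 40 genes with enough UMIs for a test rose and 4 fell (edgeR on summed UMIs with slice as a block, adjusted p under 0.05), where 22.2% of all 14476 genes tested rose and 20.6% fell. At 21 dpi 26 of the 40 rose and 3 fell, where 29% of all genes rose and 27.4% fell. The median log2 fold change over the 40 genes was 1.95 at 7 dpi and 2.70 at 21 dpi, beside medians of all genes near 0, and the latter was 2.63 with the genes absent from free spots set to their lower bound. Of the genes that rose, 23 did so at both times, and Mmp17 and Mmp24 fell at both. The share of all genes called at both times is not given here, so this count has no background. Genes could enter the test through their UMIs in fibrotic spots alone, and the direction of such genes says little. Adamts7, Adamts12, Adamts14, Mmp3, Mmp8, Mmp10, Mmp11, Mmp23 and Mmp27 were among them. The counts of genes that rose include such genes. The rest are accounted for below by role.

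**Figure D1:**
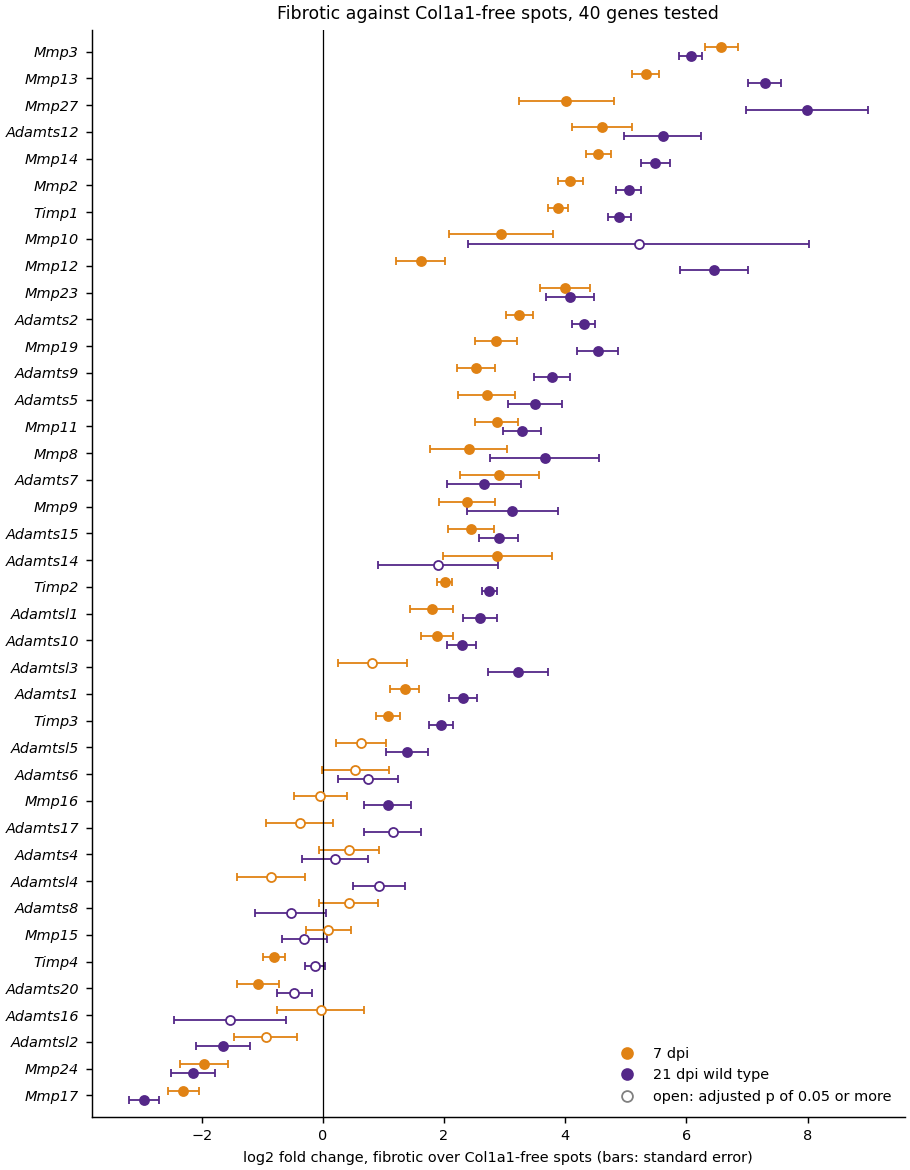
Log2 fold change (x axis) of each of the 40 genes tested (y axis) between fibrotic and free spots of the same slices, for wild-type mice at 7 dpi (orange) and at 21 dpi (purple), with standard errors as bars and open symbols where the edgeR adjusted p was not under 0.05. Mmp3, Mmp13, Mmp14, Mmp2 and Timp1 lie far to the right at both times, Mmp17 and Mmp24 to the left, and Mmp12 shows a wide gap between the times. Mmp10 and Mmp27 had no UMI in free spots at 21 dpi and are drawn there at fitted values that depend on the prior count.

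Of the 4 inhibitors, Timp1, Timp2 and Timp3 rose in fibrotic spots at both times. Timp1, an inducible inhibitor of most secreted MMPs, had 2.65 and 3.02 UMIs per 10000 in fibrotic spots at 7 dpi (slices 1 and 2), 2.01 and 1.91 at 21 dpi, and 1.64 and 1.55 in the deleter slices. Its level in free spots was 0.221 and 0.184 at 7 dpi, 0.0805 and 0.0515 at 21 dpi, and 0.0530 and 0.0512 in the deleter slices. Every fibrotic level lay above every free level, and the log2 fold change was 3.88 ± 0.16 (SE, n = 2 slices) at 7 dpi and 4.89 ± 0.19 at 21 dpi (edgeR adjusted p = 6.57e-07 and 1.14e-07). Timp2, which inhibits MMP-2 and also takes part in its activation at the cell surface, had 9.02, 8.71, 8.73, 9.42, 7.90 and 7.62 UMIs per 10000 in fibrotic spots of the same 6 slices. In free spots it had 2.36, 2.29, 1.38, 1.41, 1.55 and 1.30. The fibrotic levels thus lay in a narrow band while the free levels were higher in both slices at 7 dpi than in the other four, and the log2 fold change was 2.01 ± 0.12 at 7 dpi and 2.75 ± 0.13 at 21 dpi (edgeR adjusted p = 4.24e-06 and 2.19e-07).

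Timp3, the matrix-bound inhibitor that also blocks ADAMTS enzymes and the shedding protease ADAM17, was higher in fibrotic spots by less. Its fibrotic levels were 1.37 and 1.66 UMIs per 10000 at 7 dpi, 2.18 and 2.07 at 21 dpi, and 2.05 and 2.38 in the deleter slices, against 0.999, 0.602, 0.614, 0.527, 0.526 and 0.583 in free spots. The smallest gap was that of slice 1 at 7 dpi. The log2 fold change was 1.07 ± 0.20 at 7 dpi (edgeR adjusted p = 0.00202; 0.54 and 0.082 without slice 2) and 1.94 ± 0.20 at 21 dpi (2.11e-05). Timp4, known from heart and brain, ran the other way. It had 0.260, 0.196, 0.286, 0.263, 0.222 and 0.270 UMIs per 10000 in fibrotic spots and 0.456, 0.371, 0.334, 0.288, 0.340 and 0.361 in free spots, lower in fibrotic spots of every slice. It fell at 7 dpi (log2 -0.80 ± 0.18, edgeR adjusted p = 0.0054; -0.72 and 0.118 without slice 2) but not past the threshold at 21 dpi (-0.13 ± 0.17, 0.532), and the difference between the times did not pass the test either (edgeR adjusted p = 0.188). Timp1, Timp3 and Timp4 each lie inside a synapsin gene on the opposite strand (Syn1, Syn3 and Syn2). Whether the counting used strand is not given in the sources used here, so it is not known whether reads from these neuronal genes were counted with theirs. In the slice at rest, where neuronal markers summed to 45.9 UMIs per 10000, Timp1 had 16 UMIs, Timp3 784 and Timp4 631. The part of synapsin reads was not tested. Nor was that of astrocytes in the Timp4 levels, although their markers, given above, were also lower in fibrotic spots at 7 dpi.

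**Figure D2:**
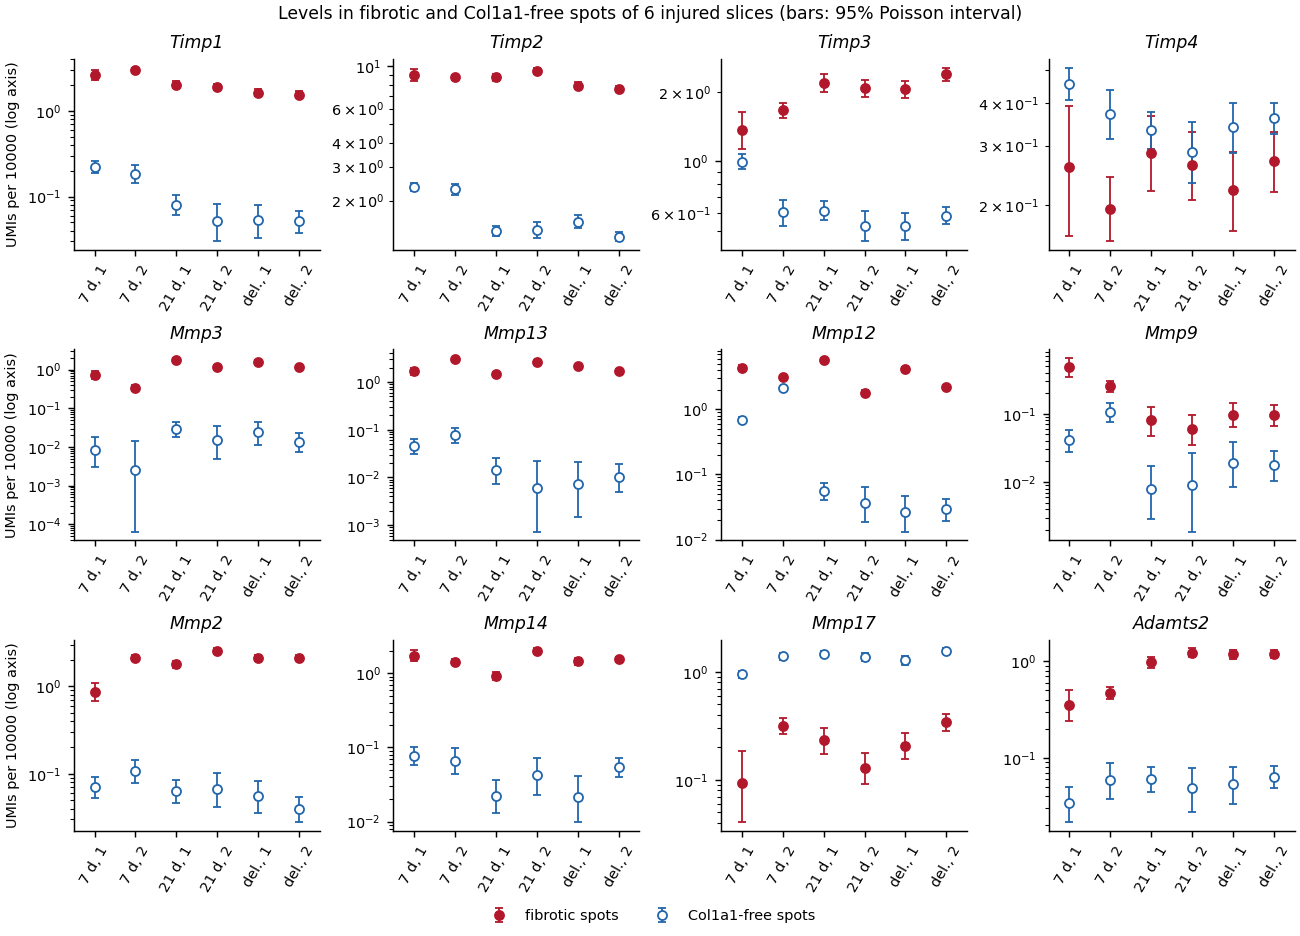
UMIs per 10000 (y axis, log scale, own range per panel) of 12 genes in fibrotic (filled red) and free (open blue) spots of the 6 injured slices (x axis: 7 d and 21 d, wild type at 7 and 21 dpi; del., deleter at 21 dpi; slice 1 or 2), with 95% Poisson intervals that cover counting error only. Timp2 lies between 7.62 and 9.42 in fibrotic spots of all 6 slices, and Mmp12 in free spots is 0.695 and 2.15 at 7 dpi but at most 0.0554 at 21 dpi.

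The 2 largest fitted fold changes at 7 dpi (Mmp3 and Mmp13) and, leaving aside Mmp27 with its lower bound alone, the 3 largest at 21 dpi (Mmp13, Mmp12 and Mmp3) belonged to secreted MMPs that lie side by side in the genome. In the GENCODE M21 annotation of GRCm38, 9 of the Mmp genes form a cluster of 427 kb on chromosome 9 (chr9:7272514-7699585), in the order Mmp13, Mmp12, Mmp1b, Mmp3, Mmp10, Mmp8, Mmp27, Mmp20 and Mmp7. UMIs were found for 6 of the 9, and all 6 rose in fibrotic spots at 7 dpi and 5 of them at 21 dpi. Of all genes tested, 22.2% rose at 7 dpi and 29% at 21 dpi. Mmp27 had 39 UMIs in fibrotic and 0 in free spots at 21 dpi, so it entered through fibrotic spots and its direction says little. Mmp8 and Mmp10 also had too few UMIs in free spots to be tested there. They, and Mmp3 with them, also entered through fibrotic spots, and the same limit holds for their direction. At 7 dpi the calls of Mmp8, Mmp10, Mmp12 and Mmp27 each ended with a slice left out, at log2 1.61, 1.20, 0.61 and 3.03. Across all alternatives Mmp3 stayed at 6.23 or more and Mmp13 at 5.03 or more. Promoter sequences of 35 of the 50 genes were found in RefSeq (GRCm38.p6, 250 bases before to 50 after the transcription start). They were searched for TGANTCA, where N is any base and the reverse strand reads the same. This pattern covers the site of AP-1 transcription factors, TGACTCA or TGAGTCA, but also TGAATCA and TGATTCA. The letters occurred in the promoters of 7 of the 9 clustered genes and in none of the other 26 genes, against 8.97% of all 27025 genes of the table (7.81% of its 32851 windows). They occurred in 3 of the 15 genes found that rose at both times and in 7 of all 35 found, both 20%. A match describes the letters only. The windows of the 4 cluster genes in which UMIs and the letters were both found are shown, with Mmp8 as a neighbour whose window did not hold them. All lie on the plus strand (Mmp13 at chr9:7272264-7272563, Mmp12 at chr9:7347124-7347423 from the second of its starts, Mmp3 at chr9:7445572-7445871, Mmp10 at chr9:7502092-7502391 and Mmp8 at chr9:7558179-7558478), and capitals mark TGANTCA, which begins at position -35 from the start site in Mmp13, -44 in Mmp12, -46 in Mmp3 and -63 in Mmp10.
Mmp13: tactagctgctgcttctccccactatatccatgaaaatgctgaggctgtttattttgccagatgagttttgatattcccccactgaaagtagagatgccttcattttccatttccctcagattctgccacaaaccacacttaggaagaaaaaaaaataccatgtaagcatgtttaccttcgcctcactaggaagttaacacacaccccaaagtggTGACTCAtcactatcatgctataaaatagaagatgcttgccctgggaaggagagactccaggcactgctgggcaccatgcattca
Mmp12: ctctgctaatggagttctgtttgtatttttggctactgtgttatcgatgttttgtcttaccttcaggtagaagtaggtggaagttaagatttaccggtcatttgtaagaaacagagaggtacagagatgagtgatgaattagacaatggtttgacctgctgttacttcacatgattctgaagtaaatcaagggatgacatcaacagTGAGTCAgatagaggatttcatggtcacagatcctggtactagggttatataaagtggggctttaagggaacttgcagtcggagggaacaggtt
Mmp3: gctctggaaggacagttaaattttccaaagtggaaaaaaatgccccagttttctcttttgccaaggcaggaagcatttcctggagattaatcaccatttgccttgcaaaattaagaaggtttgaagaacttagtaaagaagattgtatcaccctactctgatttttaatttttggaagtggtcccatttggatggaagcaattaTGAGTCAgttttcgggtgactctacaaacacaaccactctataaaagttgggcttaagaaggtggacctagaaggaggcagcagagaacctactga
Mmp10: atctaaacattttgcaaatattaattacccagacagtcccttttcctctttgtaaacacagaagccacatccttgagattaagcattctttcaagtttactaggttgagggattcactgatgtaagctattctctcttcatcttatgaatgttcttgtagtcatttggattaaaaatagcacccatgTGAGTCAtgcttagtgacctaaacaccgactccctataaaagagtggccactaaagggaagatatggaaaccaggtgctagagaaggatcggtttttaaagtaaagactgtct
Mmp8: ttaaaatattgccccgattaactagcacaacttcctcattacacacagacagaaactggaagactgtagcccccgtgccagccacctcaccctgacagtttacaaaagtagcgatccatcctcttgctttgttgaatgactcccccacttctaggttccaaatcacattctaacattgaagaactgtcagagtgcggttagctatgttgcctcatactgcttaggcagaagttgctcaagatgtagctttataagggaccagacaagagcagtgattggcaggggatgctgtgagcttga
The first window of Mmp12, and that of Mmp27, did not hold the letters. Those of Mmp1b, Mmp7 and Mmp20 did, although no UMI of these genes was found.

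Mmp3 (stromelysin-1), which cleaves many matrix proteins and activates other MMPs, had 0.732 and 0.330 UMIs per 10000 in fibrotic spots at 7 dpi, 1.80 and 1.15 at 21 dpi, and 1.60 and 1.15 in the deleter slices. In free spots it had 0.00844 (6 UMIs), 0.00256 (1 UMI), 0.0290, 0.0151, 0.0241 and 0.0136. The fibrotic and free levels thus lay far apart in all 6 slices. The log2 fold change was 6.57 ± 0.27 at 7 dpi and 6.07 ± 0.19 at 21 dpi (edgeR adjusted p = 6.57e-07 and 9.8e-08), and the level in fibrotic spots themselves was lower at 7 than at 21 dpi (log2 -1.66 ± 0.35, edgeR adjusted p = 0.021). Without slice 2 at 7 dpi the latter was -0.96 with an adjusted p of 0.225, without edge spots -1.54 with 0.13, and with DESeq2 -1.49 with 0.18.

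Mmp13, the main collagenase of rodents, had 1.67 and 3.01 UMIs per 10000 in fibrotic spots at 7 dpi, 1.47 and 2.61 at 21 dpi, and 2.13 and 1.66 in the deleter slices. Its free levels were 0.0450 and 0.0768 at 7 dpi and 0.0145, 0.00606, 0.00723 and 0.0105 in the other slices. The fibrotic levels of the times overlapped whereas the free levels did not. The log2 fold change was 5.33 ± 0.23 at 7 dpi and 7.29 ± 0.28 at 21 dpi (edgeR adjusted p = 6.57e-07 and 1.14e-07), the latter 8.70 without slice 1. Mmp8, the neutrophil collagenase, was counted at 10 and 33 UMIs in fibrotic spots at 7 dpi and at 9 and 11 at 21 dpi, with 8, 10, 1 and 2 UMIs in free spots. It rose at both times (log2 2.40 ± 0.63 and 3.66 ± 0.90, edgeR adjusted p = 0.0138 and 0.00742), but the call ended when slice 1 at 7 dpi (1.61, 0.157) or slice 1 at 21 dpi (2.63, 0.111) was left out. Leaving out slice 2 in place of slice 1 gave 3.45 and 4.74. Among neutrophil markers, Ly6g, Mpo and Elane had at most 4 UMIs each in fibrotic spots of any of these slices, whereas S100a8 and S100a9 had 38 to 617.

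Mmp12, macrophage elastase, differed less between fibrotic and free spots at 7 dpi. In fibrotic spots it had 4.29 and 3.12 UMIs per 10000 at 7 dpi, 5.81 and 1.80 at 21 dpi, and 4.22 and 2.23 in the deleter slices. In free spots it had 0.695 and 2.15 at 7 dpi, 0.0554 and 0.0363 at 21 dpi, and 0.0265 and 0.0293 in the deleter slices. The free level of slice 2 at 7 dpi exceeded the fibrotic level of slice 2 at 21 dpi. The log2 fold change was 1.62 ± 0.40 at 7 dpi (edgeR adjusted p = 0.00936; 0.61 and 0.142 without slice 1, and 2.71 without slice 2) and 6.46 ± 0.56 at 21 dpi (7.17e-06; 5.63 without slice 1). Mmp10 (stromelysin-2) had 24 and 37 UMIs in fibrotic spots at 7 dpi and 3 and 1 at 21 dpi, with 6 and 15 UMIs in free spots at 7 dpi and none at 21 dpi. It rose at 7 dpi (log2 2.94 ± 0.85, edgeR adjusted p = 0.0254), which was lost without slice 1 (1.20, 0.286), with DESeq2 (3.20, 0.378) and with a Col1a1 minimum of 10 (2.09, 0.0769). Without slice 2 it was 5.11. At 21 dpi its 4 UMIs did not pass the test (0.153). Mmp27 had 2 and 33 UMIs in fibrotic spots at 7 dpi and 15 and 24 at 21 dpi, against 2 and 1 and then none in free spots. It rose at 7 dpi (log2 4.02 ± 0.78, edgeR adjusted p = 0.00314; 3.03 and 0.228 without slice 2, and 4.79 without slice 1) and at 21 dpi (edgeR adjusted p = 0.000144), where it was at least 27.8-fold higher, counting 3 UMIs over the free spots of both slices as the limit of detection.

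Among MMPs elsewhere in the genome, both gelatinases rose in fibrotic spots. Mmp2, the gelatinase that fibroblasts make constitutively, had 0.874 and 2.13 UMIs per 10000 in fibrotic spots at 7 dpi, 1.79 and 2.54 at 21 dpi, and 2.11 and 2.12 in the deleter slices, against 0.0397 to 0.108 in free spots. Slice 1 at 7 dpi had the lowest fibrotic level. Its log2 fold change was 4.08 ± 0.21 at 7 dpi and 5.04 ± 0.21 at 21 dpi (edgeR adjusted p = 1.51e-06 and 1.44e-07). Mmp9, the gelatinase of leukocytes, had 0.484 and 0.253 UMIs per 10000 in fibrotic spots at 7 dpi, 0.0805 and 0.0596 at 21 dpi, and 0.0973 and 0.0964 in the deleter slices, against 0.0408, 0.105, 0.00792, 0.00908, 0.0193 and 0.0178 in free spots. Both classes were highest in the slices at 7 dpi. It rose in fibrotic spots at both times (log2 2.38 ± 0.46 and 3.13 ± 0.75, edgeR adjusted p = 0.00248 and 0.0053), at 21 dpi not without slice 1 (2.69, 0.0983). At 7 dpi the value was 1.33 without slice 1 and 3.65 without slice 2. Mmp11 (stromelysin-3) and Mmp19 rose at both times, by log2 2.87 and 2.85 at 7 dpi and by 3.29 and 4.53 at 21 dpi. Mmp23, a membrane-anchored MMP, also rose at both (edgeR adjusted p = 6.11e-05 and 1.48e-05), by log2 4.08 at 21 dpi. With slice 1 left out, Mmp19 was at 5.42 at 21 dpi and Mmp23 at 4.75 at 7 dpi. Mmp11 and Mmp23 entered the test through fibrotic spots, so their direction says little.

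The membrane-type MMPs, which sit in the plasma membrane and act at the cell surface, were split. Mmp14 (MT1-MMP), the pericellular collagenase that activates pro-MMP-2 together with TIMP-2, had 1.74 and 1.44 UMIs per 10000 in fibrotic spots at 7 dpi, 0.921 and 2.00 at 21 dpi, and 1.46 and 1.54 in the deleter slices, against 0.0217 to 0.0774 in free spots. It rose at both times (log2 4.54 ± 0.21 and 5.49 ± 0.23, edgeR adjusted p = 1.06e-06 and 1.63e-07). Mmp17 (MT4-MMP) had 0.0945, 0.319, 0.233, 0.130, 0.206 and 0.342 UMIs per 10000 in fibrotic spots, in the order used for Timp1, against 0.950, 1.39, 1.47, 1.37, 1.27 and 1.57 in free spots. Here every free level exceeded every fibrotic level, and the log2 fold change was -2.31 ± 0.26 at 7 dpi and -2.96 ± 0.25 at 21 dpi (edgeR adjusted p = 9.88e-05 and 6.32e-06), the former -3.24 without slice 2. Mmp24 (MT5-MMP), a neuronal member, behaved alike, with 0.0118 to 0.0626 UMIs per 10000 in fibrotic and 0.159 to 0.206 in free spots, and fell by 1.96 and 2.15 on the log2 scale (edgeR adjusted p = 0.00321 and 0.000667), with -3.66 at 7 dpi without slice 2 and -2.86 at 21 dpi without slice 1. The neuronal markers named above moved with both, and their part was not tested. Mmp16 (MT3-MMP) passed the threshold at 21 dpi (log2 1.07 ± 0.38, edgeR adjusted p = 0.036, against -0.04 at 7 dpi), which was lost without either slice at 21 dpi (1.17 with 0.107 and 0.96 with 0.191), and Mmp15 (MT2-MMP) passed at neither time (0.09 and -0.31).

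Among the ADAMTS genes, Adamts2, the main procollagen N-proteinase, which trims newly made fibrillar collagens, had 0.354 and 0.473 UMIs per 10000 in fibrotic spots at 7 dpi, 0.979 and 1.23 at 21 dpi, and 1.18 and 1.19 in the deleter slices, against 0.0338 to 0.0638 in free spots. It was lower in both slices at 7 dpi than in the other four. It rose in fibrotic spots at both times (log2 3.24 ± 0.23 and 4.30 ± 0.19, edgeR adjusted p = 9.15e-06 and 1.84e-07). Adamts14, a further procollagen N-proteinase, had 2 and 24 UMIs in fibrotic spots at 7 dpi and rose there (log2 2.88 ± 0.90, edgeR adjusted p = 0.0266; 1.54 and 0.55 without slice 2, and 4.34 without slice 1) but did not pass at 21 dpi (1.90, 0.129), and Adamts3 had 57 UMIs in all slices, too few for the test.

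Of the 7 ADAMTS genes whose enzymes cleave large proteoglycans, 4 rose at 7 dpi and the same 4 at 21 dpi, where 22.2% and 29% of all genes rose. Adamts1 had 0.602 and 0.348 UMIs per 10000 in fibrotic spots at 7 dpi, 0.729 and 0.575 at 21 dpi, and 0.401 and 0.347 in the deleter slices, against 0.0820 to 0.193 in free spots. Its fold change was log2 1.35 ± 0.24 at 7 dpi and 2.32 ± 0.23 at 21 dpi (edgeR adjusted p = 0.00145 and 1.83e-05). Adamts9 had 0.248 and 0.271 at 7 dpi, 0.447 and 0.452 at 21 dpi, and 0.467 and 0.545 in the deleter slices, against at most 0.0619 in free spots, and rose by log2 2.53 ± 0.32 and 3.78 ± 0.30 (edgeR adjusted p = 0.000196 and 3.95e-06). Adamts5, the aggrecanase, rose by log2 2.70 and 3.50 and Adamts15 by 2.45 and 2.90, both with adjusted p over 0.05 at 7 dpi when slice 2 was left out (1.68 with 0.0767 and 1.78 with 0.0538), and at 3.85 and 3.05 when slice 1 was. Adamts4, also an aggrecanase, and Adamts8 did not pass (Adamts4 0.44 and 0.20, Adamts8 0.43 and -0.53). Adamts20 fell at 7 dpi (-1.07 ± 0.35, edgeR adjusted p = 0.0326), a call that ended when either slice at 7 dpi was left out (-1.10 with 0.0976 and -1.03 with 0.281).

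Adamts10, which binds fibrillin microfibrils, rose by log2 1.89 ± 0.26 and 2.29 ± 0.23 (edgeR adjusted p = 0.000354 and 2.09e-05), with 0.260 to 0.728 UMIs per 10000 in fibrotic and 0.0892 to 0.121 in free spots, and at 7 dpi by 1.24 without slice 2. Adamts12 rose by 4.61 and 5.61, with 14, 74, 23 and 24 UMIs in fibrotic spots of the wild-type slices and 6, 2, 2 and 0 in their free spots, so the value at 21 dpi rests on the 2 UMIs in free spots of slice 1. Its close relative Adamts7 rose by 2.91 and 2.66, but at neither time without 1 slice (2.12 with 0.267 without slice 2 at 7 dpi, and 2.49 with 0.104 without slice 1 at 21 dpi). Adamts7, Adamts12 and Adamts14 entered the test through fibrotic spots, so their direction says little. Adamts6, Adamts16 and Adamts17 did not pass (Adamts6 0.54 and 0.75, Adamts16 -0.04 and -1.54, Adamts17 -0.38 and 1.15). Adamts13, which cleaves von Willebrand factor, had 265 UMIs in all and did not enter the test within slices, nor did Adamts18 (77 UMIs), Adamts19 (38), Mmp25 (60) and Mmp28 (47). Of the ADAMTS-like genes, Adamtsl1 rose at both times (log2 1.79 and 2.60, edgeR adjusted p = 0.00267 and 3.22e-05; 1.25 and 0.172 at 7 dpi without slice 2). Adamtsl3 and Adamtsl5 rose at 21 dpi (3.22 ± 0.49 and 1.39 ± 0.34, edgeR adjusted p = 0.000333 and 0.00618) but did not pass at 7 dpi (0.82 and 0.63), and Adamtsl5 was lost without slice 2 at 21 dpi (1.25, 0.0664). Adamtsl2 fell at 21 dpi (-1.64 ± 0.44, 0.00955; -1.29 and 0.141 without slice 2), and Adamtsl4 passed at neither time (-0.86 and 0.92).

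Genes that act with these enzymes were counted from lists, to be read against the shares of all genes given above (22.2% higher and 20.6% lower at 7 dpi, 29% and 27.4% at 21 dpi). Of 5 tested genes of the plasminogen system, whose product plasmin activates several MMPs, 4 rose at 7 dpi and 5 at 21 dpi, and none fell, the exception at 7 dpi being Serpinf2 (log2 -0.98). The activator Plau rose by log2 2.62 and 3.61 and its receptor Plaur by 1.93 and 3.18. All 8 ADAM proteases, membrane shedding enzymes, rose at both times, among them Adam12 by 3.19 and 4.12 and Adam8 by 2.12 and 4.37, and Adam10, the one that sheds many neuronal surface proteins, by 0.68 and 0.81. Of 9 cathepsins and other matrix proteases 8 rose at 7 dpi and 9 at 21 dpi, among them cathepsin K (Ctsk, 4.04 and 4.69), the exception at 7 dpi being Htra1 (0.16). Of 11 genes for control and activation at the surface, 4 rose and 3 fell at 7 dpi and 6 rose and 3 fell at 21 dpi. The share that fell, 27.3%, was thus near that of all genes. Those that fell were the neural proteoglycans Spock1, Spock2 and Spock3 at both times (log2 -2.39 to -1.31), and Cd44, a hyaluronan receptor that docks MMP-9, rose by 1.71 and 3.74. Of the 4 lecticans, substrates of the proteoglycan-cleaving ADAMTS enzymes, Vcan rose (2.16 and 1.36) and Ncan fell (-0.63 and -1.07) at both times, while Acan rose (2.01) and Bcan fell at 7 dpi (edgeR adjusted p = 0.0438 and 0.000456) and neither passed at 21 dpi.

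Levels at 7 and 21 dpi were also compared across mice, in fibrotic and in free spots separately. The time points were on different capture areas, and Xist, the RNA of the inactive X chromosome, had 1597 and 1281 UMIs in the mice at 7 dpi but 4 and 1 in wild-type mice at 21 dpi, so time, area and sex cannot be told apart. In fibrotic spots 2 of 36 genes tested were higher at 7 dpi and 4 lower, where 1.81% of all 13288 genes were higher and 2.75% lower. Mmp9, with 41 and 111 UMIs at 7 dpi against 18 and 17 at 21 dpi, was higher at 7 dpi (log2 2.24 ± 0.37, edgeR adjusted p = 0.00648; 1.92 and 0.129 without edge spots, and 2.84 without slice 2 at 7 dpi). Mmp10 was higher by 4.14 ± 0.98 (edgeR adjusted p = 0.0368) and lost its call without slice 1 at 7 dpi (3.33, 0.184), slice 2 at 7 dpi (5.12, 0.0509) or slice 2 at 21 dpi (3.36, 0.123), with DESeq2 (4.48, 0.235) and without edge spots (3.90, 0.0722). With slice 1 at 21 dpi left out it was 5.18. Besides Mmp3, given above, Adamts2 (log2 -1.36 ± 0.18, edgeR adjusted p = 0.00216), Adamtsl1 (-1.18 ± 0.26, 0.0272) and Adamts9 (-0.77 ± 0.18, 0.0357) were lower at 7 dpi. Adamts2 kept its call under all alternatives run. Adamtsl1 lost it without slice 1 at 7 dpi (-1.06, 0.113), slice 2 at 7 dpi (-1.60, 0.123) or slice 1 at 21 dpi (-0.94, 0.0987), with DESeq2 (-1.23, 0.0991) and without edge spots (-1.26, 0.0508). Adamts9 lost it without any 1 of the 6 slices (adjusted p from 0.0548 to 0.195). None of the 4 inhibitors passed in fibrotic spots, Timp1 being nearest (0.54 ± 0.14, edgeR adjusted p = 0.0545).

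In free spots 4 of 35 genes tested were higher at 7 than at 21 dpi and none was lower, where 3.01% of all 14149 genes were higher and 0.127% lower. Mmp12 was higher by log2 4.87 ± 0.58 (edgeR adjusted p = 0.00758) and Timp1 by 1.58 ± 0.26 (0.0197), with the levels given above. Mmp9 was higher by 3.06 ± 0.62 (0.0434) and Timp2 by 0.76 ± 0.14 (0.0342). For each of the 4 genes both slices at 7 dpi exceeded both wild-type slices at 21 dpi, but the calls came from these same slices, so this is no further support. The call for Mmp12 held in every alternative run (5.49 without slice 1 and 3.82 without slice 2 at 7 dpi). That for Timp1 was lost without slice 1 at 7 dpi (1.45, 0.111) and slice 2 at 21 dpi (1.34, 0.0929). That for Timp2 ended when any 1 of the 4 wild-type slices was left out (adjusted p from 0.0794 to 0.19). That for Mmp9 ended in 5 of the 6 fits without 1 slice (adjusted p from 0.0846 to 0.183), the exception being that without slice 1 at 7 dpi (3.65, 0.0299). Macrophage and microglial markers summed to 11.3 and 12.8 UMIs per 10000 in free spots at 7 dpi and to 4.04 and 2.58 at 21 dpi, and their part in these differences was not tested. The gap between fibrotic and free spots itself differed between the times for 3 of 40 genes, all with the smaller gap at 7 dpi, as had 2.71% of all 14476 genes, while 0.345% had the larger one there. They were Mmp12 (log2 -4.84 ± 0.69, edgeR adjusted p = 0.00652), Mmp13 (-1.96 ± 0.44, 0.0438) and Timp2 (-0.73 ± 0.17, 0.0497). The call for Mmp12 ended without slice 1 at 21 dpi (-4.03, 0.0572), and the difference was -5.83 and -3.73 without slices 1 and 2 at 7 dpi. That for Mmp13 ended without slice 1 or slice 2 at 7 dpi (adjusted p = 0.176 and 0.153) or slice 2 at 21 dpi (-1.36, 0.174), and the difference was -3.38 with slice 1 at 21 dpi left out. That for Timp2 ended when any 1 of the 4 wild-type slices was left out (adjusted p from 0.124 to 0.214). These comparisons use the same slices as those above.

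Distance from fibrotic spots showed where the tissue outside them carried Mmp12 at 7 dpi. Spots were grouped by the number of steps on the hexagonal array to the nearest fibrotic spot, whatever their own lower Col1a1 count. In slice 1 at 7 dpi Mmp12 had 4.29 UMIs per 10000 in fibrotic spots, 5.43 at 1 step, 2.91 at 2 steps, 2.65 at 3 to 4 steps and 0.289 at 5 or more. In slice 2 it had 3.12, 4.41, 6.28, 5.12 and 0.293. At 7 dpi it was thus highest outside the fibrotic spots, whereas at 21 dpi it dropped at the first step, from 5.81 to 0.866 in slice 1 and from 1.80 to 0.199 in slice 2, and likewise in the deleter slices, from 4.22 to 0.400 and from 2.23 to 0.348. Macrophage and microglial markers followed a flatter course at 7 dpi, with 34.6, 40.8, 41.5, 21.9 and 8.95 in slice 1 and 31.9, 22.2, 26.8, 24.1 and 7.02 in slice 2, and at 21 dpi fell from 27.7 to 23.7 and from 29.4 to 19.8 at the first step. Their part in the Mmp12 profile was not tested.

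Other genes had their own profiles. Mmp13 dropped at the first step in all 6 slices, from 1.67 to 0.645 and 3.01 to 0.318 at 7 dpi and from 1.47 to 0.156 and 2.61 to 0.133 at 21 dpi. Timp2 decreased in steps over several spots, in slice 1 at 7 dpi from 9.02 through 8.16, 7.04 and 3.87 to 2.18. Timp1 and Mmp3 dropped at the first step in 5 of the slices, but in deleter slice 1 they were higher at 1 step than in fibrotic spots, 2.13 against 1.64 for Timp1 and 2.57 against 1.60 for Mmp3, with 1.35 for each at 2 steps. S100a8, S100a9 and the other neutrophil markers summed to 2.76 UMIs per 10000 at 1 step and 1.00 in fibrotic spots of that slice, the single slice of the 6 in which they were higher at 1 step. Among these markers Ly6g had no UMI anywhere in that slice, and the part of neutrophils in the Timp1 and Mmp3 profiles was not tested. Mmp17 ran in the opposite direction. In the 4 slices at 21 dpi, deleter mice included, it had 0.130 to 0.342 UMIs per 10000 in fibrotic spots and 1.42 to 1.61 at 5 or more steps.

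**Figure D3:**
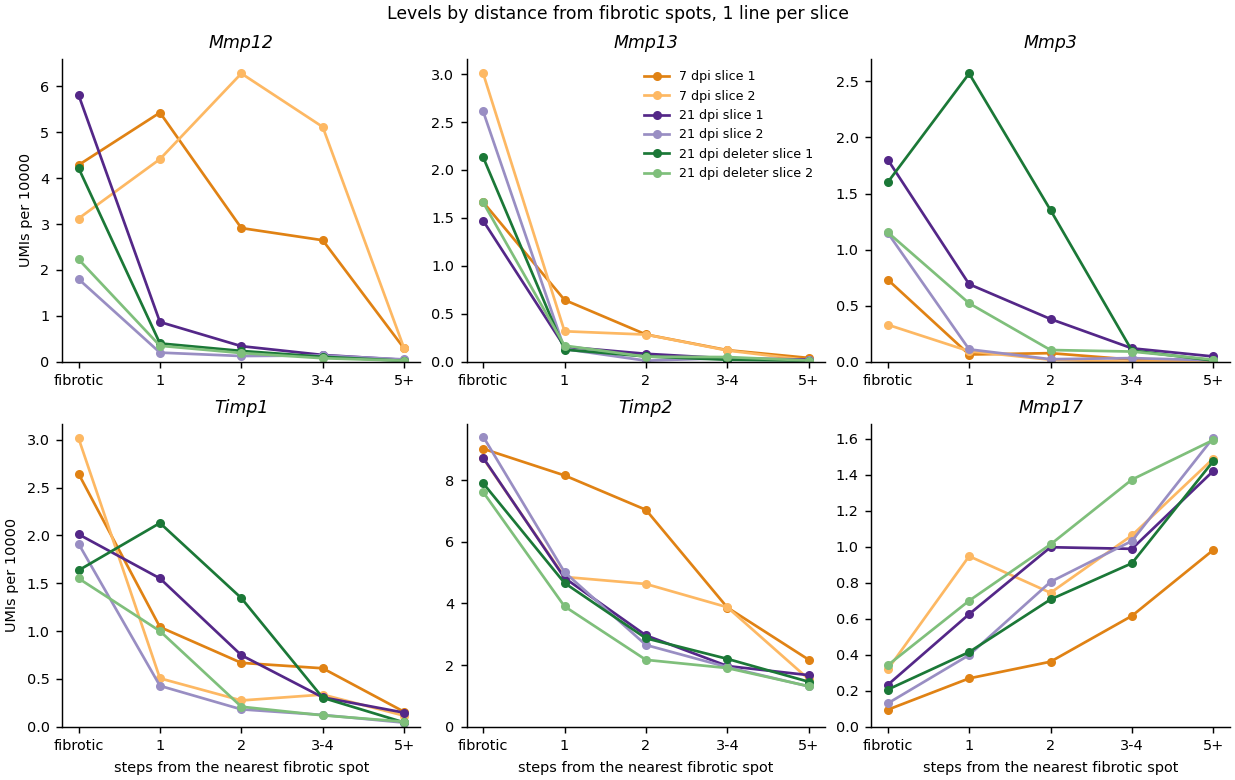
UMIs per 10000 (y axis) of 6 genes in fibrotic spots and in spots 1, 2, 3 to 4 and 5 or more array steps away (x axis), with 1 line per slice and no error bars. Mmp12 peaks at 5.43 and 6.28 outside the fibrotic spots in the slices at 7 dpi (orange) and drops at once in the others, and Mmp3 and Timp1 peak at 1 step in deleter slice 1 (dark green).

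The deleter slices were compared with the wild-type slices at 21 dpi. Cthrc1 itself had 26 and 48 UMIs in fibrotic spots of the deleter slices and 49 and 50 in those of the wild-type slices (0.101 and 0.132 against 0.219 and 0.175 UMIs per 10000). No gene of the 36 tested in fibrotic spots and none of the 35 tested in free spots passed (edgeR adjusted p), where 0.0527% and 0% of all genes did. At an unadjusted p under 0.05 there were 2 and 0, and DESeq2 called 0 and 0. The largest change with an unadjusted p under 0.05 was that of Adamts1 in fibrotic spots (log2 -0.80 ± 0.24, edgeR adjusted p = 0.666), followed by Timp1 (-0.30 ± 0.14, 0.79). There were 2 slices a group, Xist had 1033 and 19 UMIs in the deleter slices against 4 and 1, and a p that missed the threshold does not show equal levels.

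The earliest change was seen between the slice at rest and the slice at 2 dpi, over all tissue spots. There is 1 slice of each, so these are values of 2 slices with counting error only and no test. Of 37 genes with at least 20 UMIs in both together, 14 were at least 2-fold higher at 2 dpi and 2 at least 2-fold lower, where 15.1% and 3.53% of all 15197 such genes were. Mmp3, Mmp8, Mmp12, Mmp19 and Adamts14 had at most 6 UMIs at rest. They could be counted only through the slice at 2 dpi and only as higher, so their direction was fixed by the minimum of 20 UMIs. Timp1 had 16 UMIs at rest, or 0.00978 per 10000 (95% exact Poisson interval 0.00559 to 0.0159), and 1153 at 2 dpi, or 0.881 (0.831 to 0.933), which is 90.0-fold higher. It was seen in 1.57% of spots at rest and in 28.1% at 2 dpi. Mmp12 had 1 UMI at rest and 363 at 2 dpi (0.277 per 10000), a ratio of 454 with an exact 95% interval from 80.9 to 17960. Mmp3 and Mmp8 had no UMI at rest and 80 and 33 at 2 dpi, at least 33.3-fold and 13.7-fold higher when 3 UMIs stand for the limit at rest.

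Adamts1, the inducible proteoglycan-cleaving enzyme, went from 0.102 UMIs per 10000 at rest to 0.460 at 2 dpi. Mmp2, the gelatinase, went from 0.00917 to 0.0458, Mmp19 from 0.00367 to 0.0336, Adamts9 from 0.0171 to 0.0565 and Adamtsl4 from 0.0275 to 0.0940. Mmp9 (0.00734 to 0.0214), Mmp15 (0.0642 to 0.158), Adamtsl1 (0.0342 to 0.0710), Adamtsl3 (0.0110 to 0.0290) and Adamts14 (2 to 20 UMIs) complete the 14. The 2 lower ones were Adamts16 (25 to 9 UMIs) and Adamts18 (15 to 6). Timp2 (0.831 to 1.42) and Timp3 (0.479 to 0.802) were higher and Mmp17 lower (1.05 to 0.649) by less than 2-fold, and Timp4 was 0.386 and 0.383. Mmp13 and Mmp10, whose values in fibrotic spots at 7 dpi are given above, had 5 and 2 UMIs in the whole slice at 2 dpi, too few to be counted. Over all spots, neutrophil markers summed to 0.0153 UMIs per 10000 at rest and 1.36 at 2 dpi, macrophage and microglial markers to 1.25 and 4.77, fibroblast markers to 0.421 and 1.23, and neuronal markers to 45.9 and 24.0. Their part in these differences was not tested. Among neutrophil markers Elane had no UMI in either slice. The slice at 2 dpi was shallow, with a median of 2633.5 UMIs per spot against 16158 at rest and 375 spots under 1000 UMIs, but with those spots left out Timp1 was 0.891, Mmp12 0.280 and Adamts1 0.462 per 10000.

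**Figure D4:**
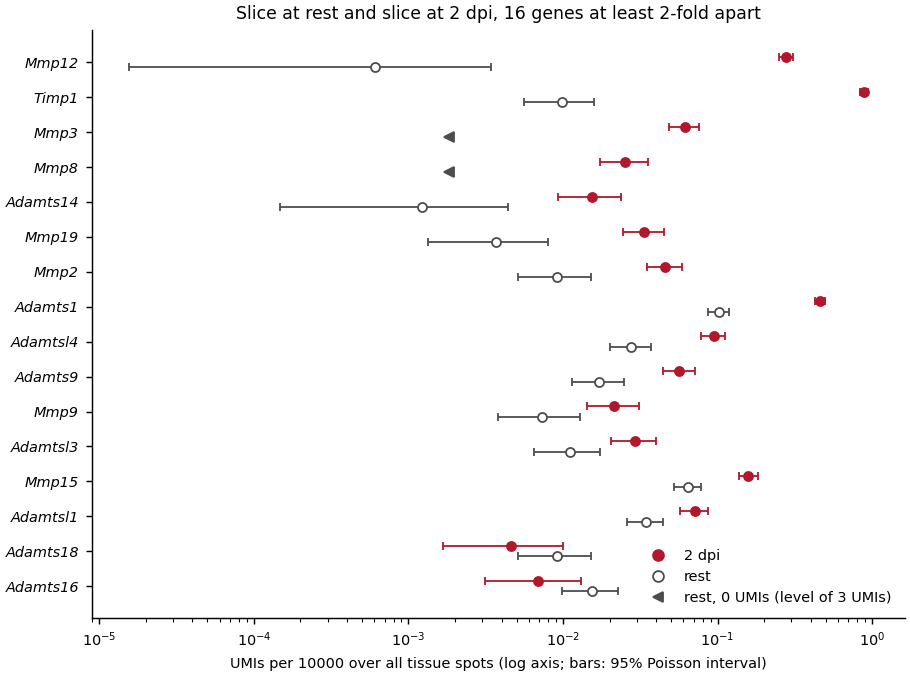
UMIs per 10000 over all tissue spots (x axis, log scale) of the 16 genes at least 2-fold apart (y axis) in the slice at rest (open grey) and the slice at 2 dpi (filled red), with 95% Poisson intervals; triangles mark genes without a UMI at rest at the level of 3 UMIs. Timp1 lies at 0.00978 and 0.881, and the intervals of Adamts16 and Adamts18 overlap.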

How the data were processed

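Per the labels, fresh-frozen brain sections were profiled on Visium slides, and the authors made the deposited count tables with Space Ranger 2.0.0 on mm10 (submitters' processing notes), as UMI counts per gene and spot without normalisation. Of the deposited files, the count tables and spot positions were used here. The Mmp, Timp, Adamts and Adamtsl genes and the gene lists were chosen with earlier results of these data known, and 1 gene of the plasminogen list is not reported here.

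Each capture area was split into its 2 slices by connected tissue, 4 spots without UMIs were left out, and levels were UMIs per 10000 UMIs of a slice's fibrotic or free spots. Intervals are exact 95% Poisson intervals and, like the limit of 3 UMIs, cover counting error only. Spots were summed per slice and class, since spots of 1 mouse are not replicates. In edgeR 4.0.16 (R 4.3.3; TMM factors, filterByExpr, quasi-likelihood F test, Benjamini-Hochberg over all genes) 12 sums of the 6 injured slices were fitted with slice as a block for fibrotic against free, since both sums of a slice come from the same mouse, and 6 sums per class for time and genotype. Col1a1, which defined the classes, was left out of the tests. The standard error is the fold change over the square root of F, n is 2 slices a group, and p-values measure the spread between single slices. Genes absent from one side have fitted fold changes that depend on the prior count, and bounds are given instead. Genes were named where they are inhibitors, passed a comparison or had at least 200 UMIs, and others with their total. DESeq2 1.42.0, other filters, spot choices and each slice left out were alternatives. A simulation gave every slice the same mean levels, gave every gene the same spread and changed 200 genes, none of low expected count. In it the fibrotic against free fit at 7 dpi recovered 56% of 2-fold and 96% of 4-fold changes. Of its calls over 14095 genes 6.17% were false. The slices of the data differ in their levels, and many genes here had few UMIs, so these shares need not hold for them.

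The depth of 11332780 to 23677298 UMIs per slice sets the precision. All areas carry the same printed barcodes, so shared barcodes do not mark shared cells.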

Additional observations from a re-analysis of the deposited data

Results flagged for a closer look

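The gap between fibrotic and free spots differed between 7 and 21 dpi for 3 of 40 genes, by a test of the difference itself (edgeR, interaction of spot class and time, adjusted p under 0.05). All 3 had the smaller gap at 7 dpi, as had 2.71% of all 14476 genes, while 0.345% had the larger one there. Of 16 alternatives run, the call was lost in 1 for Mmp12, in 7 for Mmp13 and in 9 for Timp2. For Mmp12, macrophage elastase, the log2 fold change at 7 dpi minus that at 21 dpi was -4.84 ± 0.69 (adjusted p = 0.00652), for the collagenase gene Mmp13 -1.96 ± 0.44 (0.0438) and for the inhibitor gene Timp2 -0.73 ± 0.17 (0.0497). For each of the 3 the free spots at 7 dpi were above those at 21 dpi in both slices. The calls came from these same slices, so this describes the levels and is no further support. In fibrotic spots Mmp12, Mmp13 and Timp2 overlapped between the times, and none passed the test of time there. Time, capture area and sex cannot be told apart in this comparison.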

How the results depend on the processing

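Over the 71 calls of member genes in all tested comparisons, 1105 values under alternatives were computed, of which 1023 kept their call and direction, 82 lost the call and 0 turned direction. All alternatives run were passed by 17 of the 29 genes called between fibrotic and free spots at 7 dpi and by 23 of 29 at 21 dpi. The number called there was 20 to 29 at 7 dpi and 26 to 29 at 21 dpi with 1 slice left out, 25 and 27 with DESeq2 (Adamts14, Adamts20, Mmp10 and Mmp12 lost at 7 dpi, Adamtsl2 and Mmp16 at 21 dpi, and Mmp12 with log2 1.69 and adjusted p = 0.0512) and 29 at both times without the replicate block. The 3 genes whose gap differed between the times became 1 with DESeq2, 13 without a filter on low counts, 6 with a Col1a1 minimum of 10, 1 with at least 3 Col1a1 UMIs in a fibrotic spot, 1 with free spots at least 3 steps away, 1 without the replicate block and 1 to 3 with 1 slice left out. The 6 genes called between the times in fibrotic spots became 2 with DESeq2, 2 without edge spots and 3 to 5 with 1 slice left out, and the 4 in free spots became 8 without the filter, 2 with free spots at least 3 steps away and 1 to 3 with 1 slice left out. Between deleter and wild-type fibrotic spots 0 became 1 without the filter (Adamts1, log2 -0.81). Of the 16 genes at least 2-fold apart between rest and 2 dpi, 10 were 3-fold apart. The causes were not tested, and other counts stayed within 1.5-fold. The precision is limited by 2 slices a group, by the shallow fibrotic spots of slice 1 at 7 dpi, and by few UMIs for Mmp8, Mmp10, Mmp27 and Adamts14.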

Other observations

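Within fibrotic spots Mmp2, Mmp14, Adamts2, Mmp3 and Mmp12 are given by Col1a1 level as examples. How many of the other genes, or of all genes, followed either course was not counted. Spots were split at 20 and 50 Col1a1 UMIs per 10000, and since Col1a1 also chose the spots, these levels are given as a description without a test. Mmp2, Mmp14 and Adamts2 were higher in spots with more Col1a1. In slice 2 at 21 dpi Mmp2 had 0.835, 3.01 and 6.10 UMIs per 10000 from the lowest to the highest class, Mmp14 0.293, 1.88 and 6.10, and Adamts2 0.331, 1.37 and 3.20. Slice 2 at 7 dpi had 1.17, 2.39 and 4.91 for Mmp2, 0.734, 1.93 and 2.68 for Mmp14, and 0.210, 0.542 and 1.24 for Adamts2. The order was the same in all 6 slices for Mmp14 and Adamts2 and in 5 for Mmp2, the exception being slice 1 at 21 dpi with 1.08, 3.26 and 2.68.

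Mmp3 and Mmp12 did not follow Col1a1 in this way. Mmp3 had 2.43, 0.635 and 0.602 UMIs per 10000 in slice 1 at 21 dpi and 1.76, 1.72 and 1.03 in deleter slice 1, and the class with the most Col1a1 was not its highest in any of the 6 slices. Mmp12 had 3.41, 3.41 and 1.32 in slice 2 at 7 dpi but 1.63 in the lowest and 10.4 in the highest class of deleter slice 1, the single slice in which its highest level was in that class. The class of at least 50 held 5 spots in slice 1 at 7 dpi and 20 to 96 in the other slices.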
